A study of Homo sapiens with 12 samples.

Results

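The protein components of the small nuclear ribonucleoproteins (snRNPs) of the spliceosome were followed at the RNA level through polysome gradients of HEK293T cells, a human embryonic kidney line. The set was a list of 42 genes, and members were those with a mean of at least 1 FPKM (fragments per kilobase of transcript, scaled to the size of the library, so a level per length) over all 12 libraries. The rule kept 37 of the 42 genes, out of 10708 named genes that met the same minimum among 15534 gene IDs in the deposited table. The members were 5 proteins of the Sm ring, 6 of the LSm ring, 3 specific to U1, 11 of U2, 2 of the U2 auxiliary factor U2AF, 4 of U5, 3 of U4/U6 and the tri-snRNP, and 3 of the minor U11/U12 particle. The other 5 listed genes were below the minimum, with mean levels of 0.69 FPKM for SNRPD1, 0.379 FPKM for SNRPF, 0.784 FPKM for LSM8, 0.309 FPKM for PRPF6 and 0.528 FPKM for PRPF4. LSM8 was the nearest below the minimum, and PRPF3, at 1.01 FPKM, the nearest above it.

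The cells had been treated with a compound that inhibits PRMT1, with one that inhibits PRMT4 (also called CARM1), or with DMSO, the solvent control; both PRMTs are enzymes that methylate arginines in proteins. Lysates were separated on 10 to 50% sucrose gradients, and each treatment gave 1 library each of total input, RNA with 1 ribosome, RNA with 2 ribosomes and RNA with 3 or more ribosomes. All cells were of 1 line, and the sources used here give neither the names of the compounds nor doses and times. The question, per the series' design text, was whether translation differs when PRMTs are inhibited.

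Each snRNP is built around a small nuclear RNA and recognises or removes introns: U1 pairs with the start of the intron, U2 with the branch site, and the U4/U6.U5 tri-snRNP brings in the catalytic core. Sm proteins form a ring on the U1, U2, U4 and U5 RNAs, and the related LSm proteins form one on U6. Arginines in the tails of several of these proteins are methylated: PRMT5 is the main enzyme for SmB, SmD1, SmD3 and LSm4, and CARM1 is known to methylate SmB, the U1 protein SNRPC and the U2 protein SF3B4. The proteins are made in the cytoplasm, so their mRNAs must meet ribosomes before any snRNP can form.

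The 12 libraries were shallow. From the steps between low FPKM values, 437000 to 602000 fragments per library were estimated, and a member had a median of 5.61 estimated fragments per library, with 27 of the 37 under 10. The DMSO input had 13 members at 0, against 3 to 10 in each of the other 11 libraries, and 16 were above 0 in all 12. Summed FPKM over all genes was 201967 in the DMSO input and 329897 to 425444 elsewhere. Among markers associated with HEK293 cells, the neurofilament genes NEFM and NEFL averaged 14.7 and 9.71 FPKM, LIN28B averaged 1.25 FPKM, and PAX2 averaged 0.497 FPKM. Among markers of other cell types, the globin genes HBA1 and HBA2 averaged 23.7 and 8.83 FPKM and the collagen gene COL1A1 averaged 0.522 FPKM, and PTPRC, CD3E, HBB, ALB and INS were not analysed here. The libraries are bulk RNA, so fewer cells of a type and less RNA per cell cannot be told apart. For the strand setting of the counting, the sources used here give nothing. Of the 37 members, 14 share exon sequence with a gene on the opposite strand. A value listed for one of those members may hold fragments of its partner. The highest mean of any gene with such an exon was 24900 FPKM, for SH3D19, against 2530 FPKM, for HERC3, among genes without one. Which strand was counted was not tested, so the levels of the other 23 members may also not be those of their own mRNAs. Partner values are given beside the members described in full, except PRPF8, whose partner was not analysed here. For others, ACTMAP opposite SNRPA averaged 11.2 FPKM, XPC opposite LSM3 3.64 FPKM, against 1.62 FPKM for LSM3 itself, and SPPL2B opposite LSM7 4.42 FPKM.

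The start of an mRNA can bear on its use by ribosomes: mRNAs of the translation machinery often begin with a C and a run of pyrimidines, the TOP motif. Windows of 30 bases around the RefSeq transcription start (GRCh38.p14) were found for 37 of the 42 listed genes, and SNRPD1, SNRNP35, LSM6, SF3B3 and PRPF3 had no entry. The windows of members that lay toward the heaviest or the lightest fraction in all 3 gradients come first, as far as they had an entry, with the first 5 transcribed bases in capitals.
SNRPB (chr20:2470775-2470804, minus strand): attttacgtggtgctGCATTtccggtagcg
SNRPD3 (chr22:24555635-24555664, plus strand): aaatgaaattgtgacGGGAAgtcctggccc
LSM4 (chr19:18323062-18323091, minus strand): gcgacgaccgccgggAGCGTgtgcagcggc
SNRNP70 (chr19:49085436-49085465, plus strand): cccaccccctgctccAGTCGctatcggagg
SNRPE (chr1:203861832-203861861, plus strand): ggctaccaagactggAAGAAagcgcgggta
A C followed by 4 C or T letters, read on the gene's own strand at the annotated start, was held by 4 of the 37 listed genes with a window (10.8%) and by 1104 of 27305 RefSeq promoters (4.04%). All 4 are shown, since they include LSM2, another member toward the heaviest fraction, and SF3A2, a U2 protein that is not.
LSM2 (chr6:31806952-31806981, minus strand): tttcccggcttcctcCTCCCctctactcta
SNRPA (chr19:40751188-40751217, plus strand): aatctctcgagagttCTCTCcgcacgcggg
SF3A2 (chr19:2236809-2236838, plus strand): tttgccccggaagtgCTTTCtttgcccgcc
LSM8 (chr7:118184149-118184178, plus strand): gggttctggcgcgccCTTTCagttctgctt
These letters stand at annotated starts, and the starts used in these cells were not measured.

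**Figure D1:**
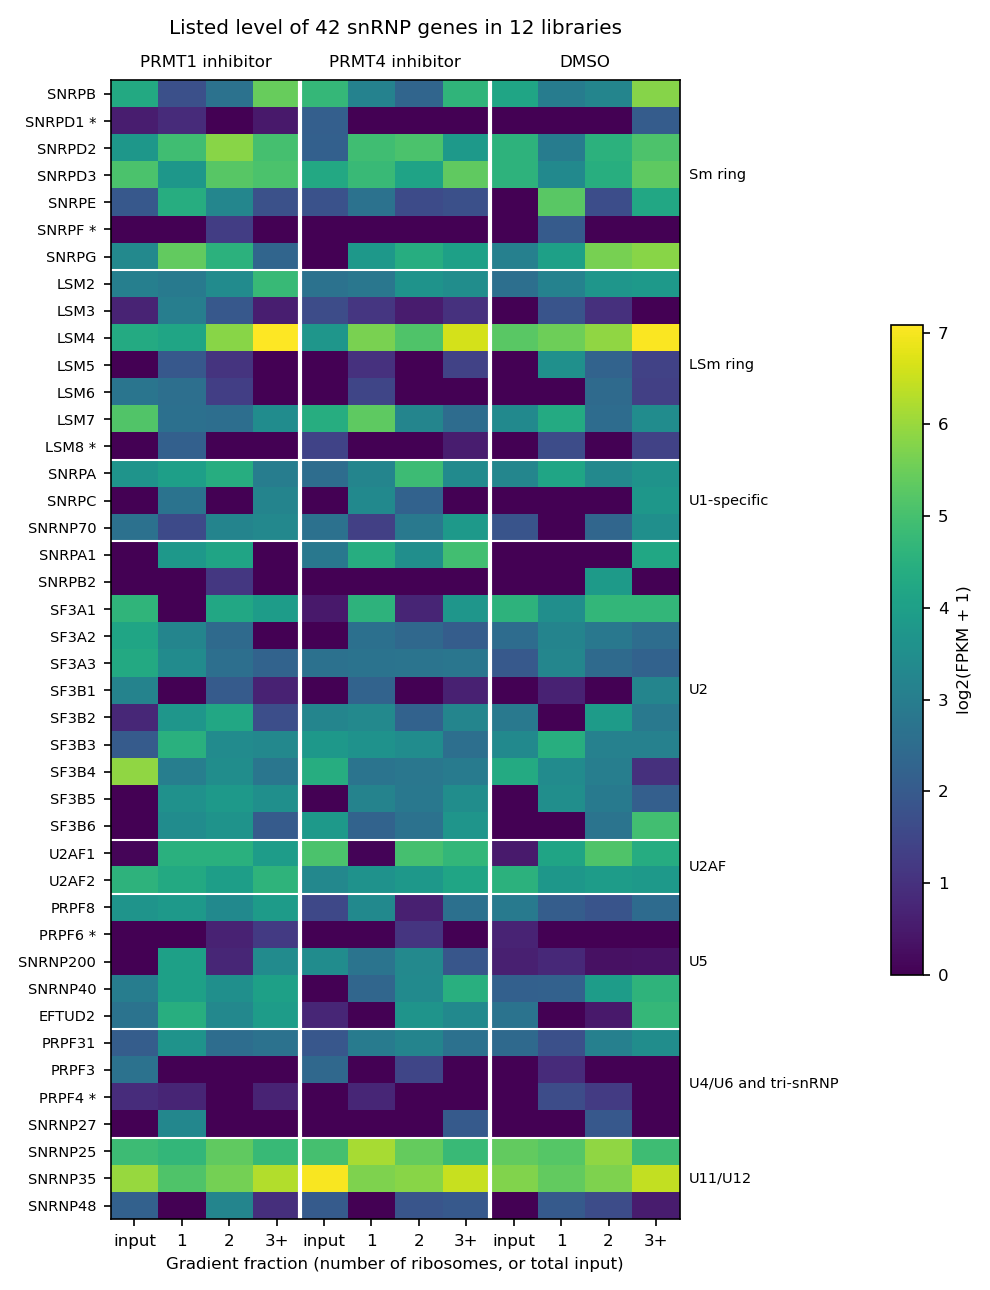
Levels of the 42 listed snRNP genes as log2(FPKM + 1), with 1 row per gene grouped by particle and 1 column per library (PRMT1 inhibitor, PRMT4 inhibitor, DMSO; in each, input, then 1, 2 and 3 or more ribosomes). Genes marked with an asterisk had a mean under 1 FPKM. The darkest cells include values listed at 0, of which the DMSO input holds 13 among the 37 members.

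Members differed widely in level per transcript length. The median of the members' mean levels was 8.5 FPKM, and the range ran to 64.8 FPKM for SNRNP35, a protein of the minor U11/U12 particle that takes the place U1-70K has in U1. LSM4 averaged 57.7 FPKM and SNRNP25, also of U11/U12, 37.9 FPKM. The 7 listed Sm ring genes spanned 0.379 to 25.8 FPKM although 1 copy of each protein enters each ring. Members with an exon opposite another gene had a median of 13.4 FPKM, against 6.62 FPKM for the other 23 members. Over all genes the same medians were 9.95 and 4.31 FPKM, and 45.5% of genes had such an exon.

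Gradient position compares, on the log2 scale and within a treatment, RNA that carries 3 or more ribosomes with RNA that carries 1. It was measured in 3 gradients and is the comparison with repeats. Each ratio was taken on log2(FPKM + 1), a scale that shrinks differences between low values, and was centred on its median over the 10708 genes. Differences between treatments count here as spread. All gradient values rest on reading the columns named R1, R2 and R3 as 1, 2 and 3 or more ribosomes, and those names alone could also be replicate numbers. In limma's test with Benjamini-Hochberg adjustment over all genes, 0 of 37 members had an adjusted p under 0.05, as did 0 of 10708 genes (0%). At an unadjusted p under 0.05 there were 6 members (16.2%) and 1772 genes (16.5%), so that the members' share was near that of all genes. Of these members 4 were higher (10.8%, against 5.97% of genes) and 2 lower (5.41%, against 10.6% of genes). By size, 6 members exceeded their 1-ribosome level by 1.5-fold or more in the heaviest fraction of each of the 3 gradients (16.2%, against 7.79% of genes), and 2 were at least 1.5-fold lower in each (5.41%, against 11.4% of genes). The 6 higher were SNRPB and SNRPD3 of the Sm ring, LSM2 and LSM4 of the LSm ring, SNRNP70 of U1 and SNRNP35 of U11/U12. The 2 lower were SNRPE of the Sm ring and SF3B3 of U2.

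The median gradient position of the members was 0.20, against -0.07 for all genes. It was 0.42 in the DMSO gradient alone, -0.01 with the PRMT1 inhibitor and 0.22 with the PRMT4 inhibitor. Without the DMSO gradient the median was -0.36, on the other side of 0, so the sign of the members' median rests on that gradient. Set by ring and particle, the median was 0.43 for the 5 Sm proteins, -0.89 for the 6 LSm proteins, 0.04 for the 11 U2 proteins and 0.76 for the 4 U5 proteins. The Sm and LSm rings together had -0.30 and the U2 and U5 proteins together 0.04. These are descriptions of small lists, and the difference between them was not tested. By a mean of at least 1.5-fold, 12 members were higher (27.9% of genes were) and 10 were lower (32.2% of genes were).

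**Figure D2:**
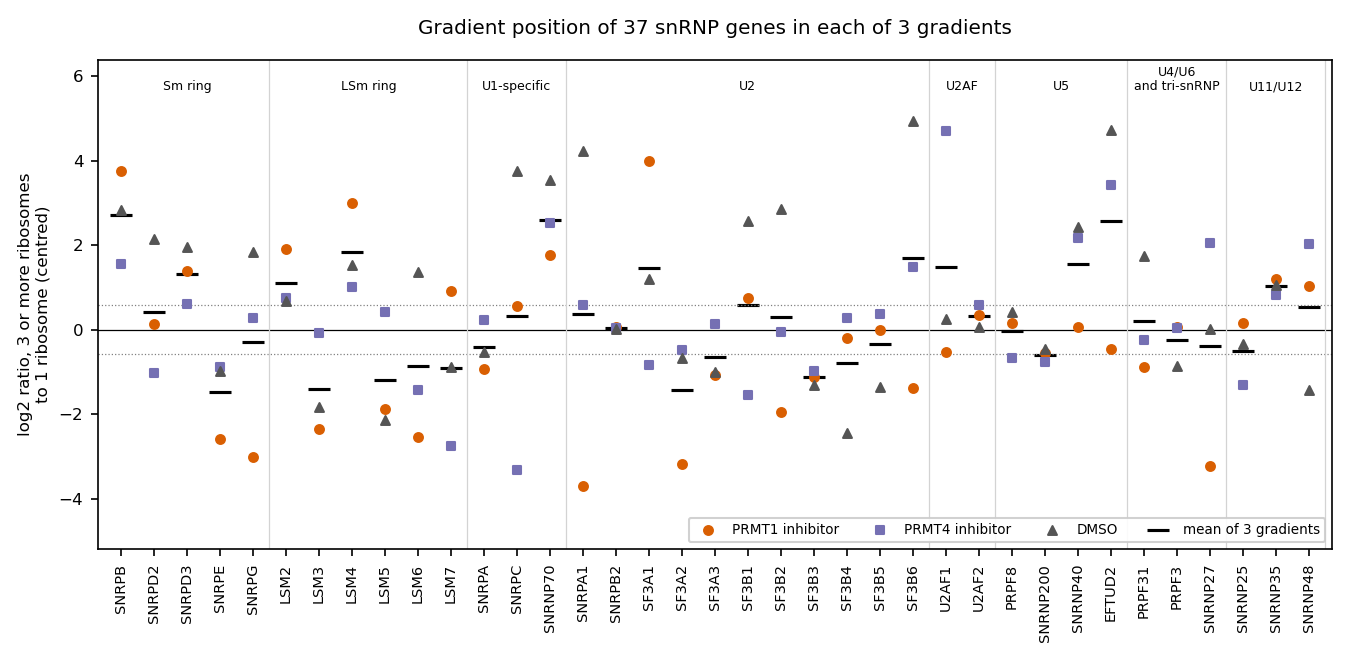
Gradient position of the 37 members, as the centred log2 difference between RNA on 3 or more ribosomes and RNA on 1, with 1 point per gradient (PRMT1 inhibitor, PRMT4 inhibitor, DMSO) and a bar at their mean, grouped by particle. SNRPB, SNRNP70, LSM4 and SNRPD3 are among the members with all 3 points above 0, and SNRPE and SF3B3 among those with all 3 below it.

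SNRPB encodes SmB and SmB′, whose arginine-rich tail is methylated by PRMT5 and by CARM1. In the order input, 1, 2 and 3 or more ribosomes, which holds for every list of 4 values below, SNRPB was listed at 18.6, 2.33, 5.34 and 42.1 FPKM with the PRMT1 inhibitor, 25.2, 7.78, 3.97 and 23.8 FPKM with the PRMT4 inhibitor and 17.1, 6.8, 8.43 and 54.4 FPKM in DMSO. In each treatment the library of 3 or more ribosomes was the highest of the 3 ribosome fractions, and its 3 values did not overlap those of the 1-ribosome libraries. Gradient position was 3.76, 1.55 and 2.84 with the PRMT1 inhibitor, the PRMT4 inhibitor and DMSO, a mean of 2.72 ± 1.11 (SD, n = 3 gradients). The adjusted p in limma was 0.265 (unadjusted 0.0139). When the 3 libraries of one fraction were compared with the 3 of the other without pairing by treatment, SNRPB was the only member called, with a difference of 2.67 (SE 0.52) and an adjusted p of 0.0348 in limma, among 509 called genes (4.75%; 1.47% higher, 3.29% lower). Over the other 9 ways of fitting it, all paired by treatment, its adjusted p was 0.147 to 0.482.

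SNRPD3 encodes SmD3, another PRMT5 substrate of the ring. Its levels were 32.6, 12.4, 37.3 and 33 FPKM with the PRMT1 inhibitor, 18.3, 26.9, 16.4 and 40.3 FPKM with the PRMT4 inhibitor and 22.8, 9.39, 20.8 and 39.4 FPKM in DMSO. Its gradient position averaged 1.33 ± 0.68 (SD, n = 3 gradients; limma adjusted p = 0.301, unadjusted 0.0498). SNRPD3 shares 321 exon bases with GUCD1 on the opposite strand, which averaged 38.7 FPKM and had a gradient position of 0.03 ± 0.16 (SD, n = 3 gradients). SNRPD3 itself stood at 1.4, 0.62 and 1.97 with the PRMT1 inhibitor, the PRMT4 inhibitor and DMSO. How reads were divided between SNRPD3 and GUCD1 was not tested.

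SNRPE encodes SmE, which carries no arginine-rich tail. SNRPE stood at 2.88, 20.2, 8.59 and 2.4 FPKM with the PRMT1 inhibitor, 2.48, 5.38, 2.09 and 2.34 FPKM with the PRMT4 inhibitor and 0, 37.5, 2.22 and 18.1 FPKM in DMSO. The 1-ribosome library was the highest of each treatment. Its gradient position was -2.58, -0.88 and -0.99 with the PRMT1 inhibitor, the PRMT4 inhibitor and DMSO, a mean of -1.48 ± 0.95 (SD, n = 3 gradients; limma adjusted p = 0.293, unadjusted 0.0439). The typical library held about 0.999 estimated fragments of SNRPE, and 9 annotated pseudogenes carry its name, so how its reads were shared among copies is uncertain.

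The other Sm proteins did not hold 1 direction. SNRPD2, which encodes SmD2, was listed at 12.4, 29.4, 56.2 and 31 FPKM with the PRMT1 inhibitor, 3.55, 29.4, 32.7 and 13.4 FPKM with the PRMT4 inhibitor and 22.8, 6.85, 22.3 and 33.8 FPKM in DMSO. SNRPG, which encodes SmG and has 20 annotated pseudogenes, was listed at 9.18, 41.1, 22.3 and 4 FPKM with the PRMT1 inhibitor, 0, 12.8, 20.4 and 15.2 FPKM with the PRMT4 inhibitor and 7.54, 15.2, 48.5 and 56.2 FPKM in DMSO. Their gradient positions ran from -1.02 to 2.16 and from -3.01 to 1.83 over the 3 gradients, so each had both signs among the treatments. SNRPD2 shares 54 exon bases with QPCTL on the opposite strand, at a mean of 6.09 FPKM. SNRPD1, which encodes the PRMT5 substrate SmD1 and was below the minimum, was listed at 0.48, 0.84, 0 and 0.4 FPKM with the PRMT1 inhibitor, 3.42, 0, 0 and 0 FPKM with the PRMT4 inhibitor and 0, 0, 0 and 3.14 FPKM in DMSO. SNRPF, which encodes SmF and was also below the minimum, was listed at 0, 0, 1.43 and 0 FPKM with the PRMT1 inhibitor, 0, 0, 0 and 0 FPKM with the PRMT4 inhibitor and 0, 3.12, 0 and 0 FPKM in DMSO. Most of those SNRPD1 and SNRPF values were 0, and no ratio is given for them.

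**Figure D3:**
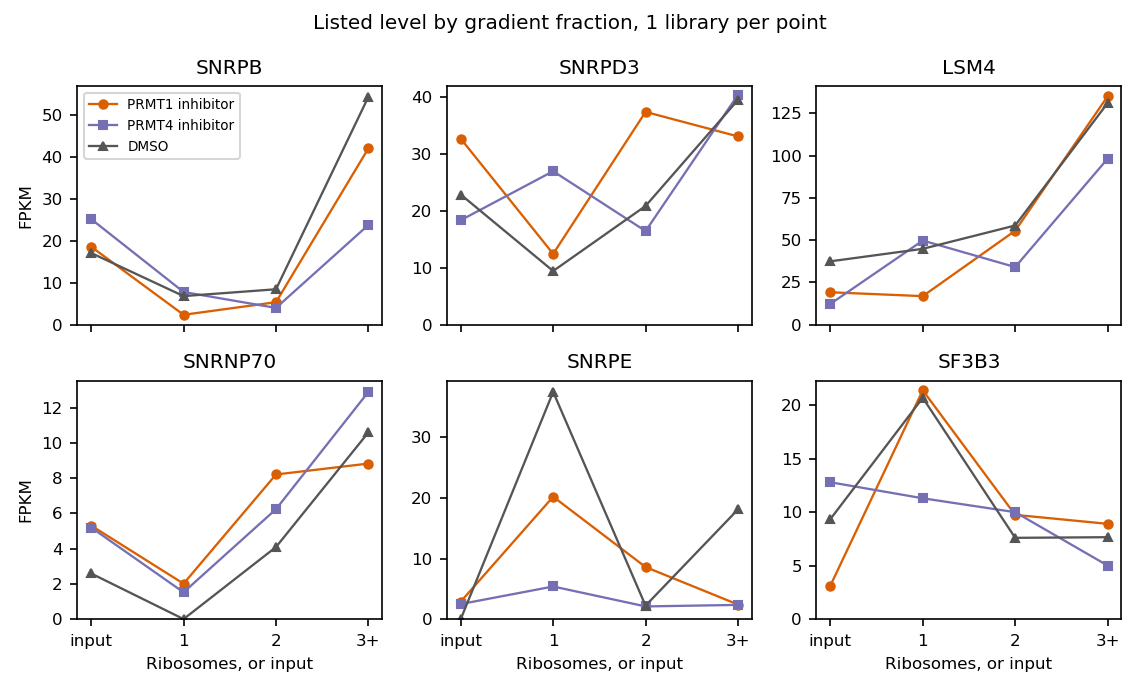
FPKM of selected snRNP genes in the input and in the fractions with 1, 2 and 3 or more ribosomes, with 1 line per treatment (PRMT1 inhibitor, PRMT4 inhibitor, DMSO) and 1 library per point. LSM4 stands at 98.1 to 135 FPKM with 3 or more ribosomes, above all 9 of its other values.

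LSM4 encodes the LSm protein with an arginine- and glycine-rich tail and was the most abundant member without an opposite-strand exon. LSM4 values were 19.1, 16.8, 55.5 and 135 FPKM with the PRMT1 inhibitor, 12.2, 49.7, 34 and 98.1 FPKM with the PRMT4 inhibitor and 37.4, 44.8, 58.6 and 131 FPKM in DMSO. On 3 or more ribosomes its levels were 135, 98.1 and 131 FPKM with the PRMT1 inhibitor, the PRMT4 inhibitor and DMSO, and each of its other 9 libraries was at or below 58.6 FPKM. Gradient position averaged 1.85 ± 1.03 (SD, n = 3 gradients; limma adjusted p = 0.276, unadjusted 0.0323). Relative to input, the difference averaged 2.25 ± 1.0 (SD, n = 3 gradients; limma adjusted p = 0.636, unadjusted 0.0296).

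Among the other LSm genes, only LSM2, one of the 4 genes with a TOP-like start, was also at least 1.5-fold toward 3 or more ribosomes in all 3 gradients, with a mean of 1.11 ± 0.71 (SD, n = 3 gradients; limma adjusted p = 0.336). LSM3, LSM5, LSM6 and LSM7, whose proteins sit in the same ring on U6 RNA, had mean gradient positions at least 1.5-fold toward 1 ribosome, and none of them was that far down in all 3 gradients. Their mean levels were 1.62, 1.89, 1.68 and 14.2 FPKM, and each had under 10 estimated fragments in the typical library.

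SNRNP70 encodes U1-70K, which binds U1 RNA directly. Levels of SNRNP70 were 5.31, 2.01, 8.21 and 8.83 FPKM with the PRMT1 inhibitor, 5.2, 1.52, 6.24 and 12.9 FPKM with the PRMT4 inhibitor and 2.59, 0, 4.09 and 10.6 FPKM in DMSO. The 1-ribosome library was the lowest of each treatment. Gradient position was 1.77, 2.52 and 3.55 with the PRMT1 inhibitor, the PRMT4 inhibitor and DMSO, a mean of 2.61 ± 0.89 (SD, n = 3 gradients; limma adjusted p = 0.265, unadjusted 0.0118). The DMSO value was taken against a library in which SNRNP70 was listed at 0. The other U1 proteins did not follow it: SNRPA, which also binds U1 RNA, had a mean of -0.42 ± 0.59 and SNRPC, a CARM1 substrate, of 0.33 ± 3.55 (SD, n = 3 gradients). SNRPC has 18 annotated pseudogenes and was listed at 0 in 7 of the 12 libraries.

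SNRNP35 and SF3B3 are given in full because their 3 gradients lay close together, and they were chosen after their values were seen. SNRNP35 was listed at 63.1, 34.3, 47.7 and 75.8 FPKM with the PRMT1 inhibitor, 128, 52, 56.1 and 89.8 FPKM with the PRMT4 inhibitor and 52.4, 40.7, 51.9 and 85.5 FPKM in DMSO. Its gradient position averaged 1.03 ± 0.18 (SD, n = 3 gradients; limma adjusted p = 0.319). SNRNP35 shares 2063 exon bases with RILPL1 on the opposite strand, which was listed at 33.3, 86.1, 68.9 and 30.8 FPKM with the PRMT1 inhibitor, 67.9, 84.4, 69 and 34.5 FPKM with the PRMT4 inhibitor and 16.1, 78.8, 67.2 and 28.7 FPKM in DMSO. RILPL1 lay the other way, with a mean of -1.34 ± 0.11 (SD, n = 3 gradients; limma adjusted p = 0.265). The 2 genes thus had opposite gradient positions in all 3 gradients while sharing exon sequence, and how reads were divided between them was not tested.

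SF3B3 encodes a subunit of the SF3b complex, which holds the branch site within U2. SF3B3 stood at 3.12, 21.4, 9.75 and 8.91 FPKM with the PRMT1 inhibitor, 12.8, 11.3, 10.0 and 5.01 FPKM with the PRMT4 inhibitor and 9.35, 20.7, 7.6 and 7.66 FPKM in DMSO. The 1-ribosome library exceeded that of 3 or more ribosomes in every treatment. Its gradient position averaged -1.13 ± 0.17 (SD, n = 3 gradients; limma adjusted p = 0.283, unadjusted 0.0391). It has no opposite-strand exon, and its typical library held about 49.1 estimated fragments, against a median of 5.61 over the members.

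U2AF1, which reads the AG at the end of an intron, was chosen after its values were seen, because they were either high or near 0. It stood at 0.07, 21.8, 21.8 and 14.2 FPKM with the PRMT1 inhibitor, 32.9, 0.04, 30.9 and 25.1 FPKM with the PRMT4 inhibitor and 0.43, 16.6, 34.2 and 19.9 FPKM in DMSO. The PRMT1 inhibitor and DMSO inputs and the PRMT4 inhibitor library of 1 ribosome were under 1 FPKM, and the other 9 libraries held 14.2 to 34.2 FPKM. A near-identical annotated copy, U2AF1L5, was not analysed here, and how reads were shared with it is uncertain. U2AF2, which binds the pyrimidine tract before that AG, ranged only from 8.89 to 23.2 FPKM over the 12 libraries.

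PRPF31, which joins U4/U6 to U5, ranged from 2.34 to 11.4 FPKM. On the opposite strand it shares 589 exon bases with PRPF31-AS1, which was not analysed here, and 266 with TFPT. TFPT averaged 14.4 FPKM, against 6.01 FPKM for PRPF31. Its particle partners SNRNP27 and PRPF3 were listed at 0 in 9 and 8 of the 12 libraries, and SNRPB2 of U2 in 10. SNRNP25 of the minor particle ranged from 25.1 to 71.1 FPKM, with POLR3K on the opposite strand at a mean of 6.78 FPKM, and SNRNP48 from 0 to 8.4 FPKM.

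Polysome association sets RNA on 3 or more ribosomes against input in the same way, and it gave no call either: 0 of 37 members and 0 of 10708 genes (0%) had an adjusted p under 0.05 in limma. At an unadjusted p under 0.05 there were 5 members (13.5%) and 734 genes (6.85%). Of these members 3 were higher (SNRNP40, LSM4 and SF3B5; 2.31% of genes were) and 2 lower (SF3B4 and PRPF3; 4.55% of genes were). By the mean, 16 members were at least 1.5-fold higher (43.2%, against 28% of genes) and 6 lower (16.2%, against 24.7% of genes). In all 3 gradients, 5 members were at least 1.5-fold above input (SNRNP70, SNRNP40, LSM4, SF3B5 and EFTUD2; 5.2% of genes were) and 3 were lower (LSM7, SF3B4 and PRPF3; 6.4% of genes were). The lower calls depend on centring, which took 0.68 from the DMSO pair, and without it 1 member was lower. In DMSO, LSM7 was listed at 9.84 FPKM on 3 or more ribosomes and 9.35 FPKM in input, and PRPF3 at 0 in both. Only LSM4 and SNRNP70 were that far up against both input and 1 ribosome. SF3B4, the U2 protein that CARM1 methylates, averaged -2.87 ± 1.30 (SD, n = 3 gradients; limma adjusted p = 0.636, unadjusted 0.0171). Its input levels were 59.1, 20.3 and 19 FPKM with the PRMT1 inhibitor, the PRMT4 inhibitor and DMSO, and its heaviest fractions held 5.9, 6.72 and 0.97 FPKM in the same order. SF3B5, another SF3b subunit, held 10.5, 10.2 and 3.44 FPKM in those fractions and was at 0 in all 3 inputs. The members' median was 0.40, against 0.06 for all genes, and 8 members were at 0 in both libraries of at least 1 of the 3 pairs.

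For the inhibitors there was 1 library against 1 library at each step, so no test was run, and no difference below can be set against the spread between cultures. Both inhibitors were compared with the same DMSO libraries, so their differences share those values. Before centring, the median gene of the inputs lay 0.68 (log2) above DMSO with the PRMT1 inhibitor and 0.57 above it with the PRMT4 inhibitor, beside the lower summed FPKM of the DMSO input. In the PRMT1 inhibitor input, 9 members were at least 1.5-fold higher than in DMSO (24.3%, against 32.6% of genes) and 18 were lower (48.6%, against 34.7% of genes). Their median was -0.56 with centring and 0.11 without it, so its sign depends on the scaling. In the PRMT4 inhibitor input, 9 members were higher (24.3%, against 35.9% of genes) and 13 were lower (35.1%, against 26.2% of genes). That median was -0.57 with centring and 0 without it. With the PRMT1 inhibitor, 7 members at 0 in both inputs (SNRPA1, SNRPB2, SNRPC, SNRNP27, LSM5, SF3B5 and SF3B6) are among the 18 through centring alone, and without centring 5 members were lower. With the PRMT4 inhibitor, the 7 members at 0 in both inputs stand at -0.57, short of 1.5-fold.

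On ribosomes, a member was counted when its mean difference over the 3 ribosome fractions was at least 1.5-fold and all 3 had the same sign. With the PRMT1 inhibitor, 4 members were higher than in DMSO (SNRNP200, LSM3, SF3B5 and PRPF8; 10.8%, against 8.8% of genes) and 3 were lower (SNRPB, LSM5 and SF3A1; 8.11%, against 7.25% of genes). With the PRMT4 inhibitor, 3 were higher (SNRPA1, SNRNP70 and SNRNP200; 8.11%, against 9.23% of genes) and 3 were lower (SNRPE, SNRPG and LSM5; 8.11%, against 8.09% of genes). The members' shares were near those of all genes in each of these 4 counts. The members' medians were 0.15 with the PRMT1 inhibitor and 0.07 with the PRMT4 inhibitor.

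Taken fraction by fraction, members higher than in DMSO were most frequent at 1 ribosome and members lower than in DMSO at 3 or more. With the PRMT1 inhibitor at 1 ribosome, 15 members were at least 1.5-fold higher (40.5%, against 31.2% of genes) and 9 lower (24.3%, against 26.1% of genes). At 2 ribosomes 13 were higher (35.1%, against 25.5% of genes) and 6 lower (16.2%, against 25.2% of genes). At 3 or more ribosomes 7 were higher (18.9%, against 26.4% of genes) and 14 lower (37.8%, against 26% of genes). The PRMT4 inhibitor gave the same order at its ends. At 1 ribosome 15 were higher (40.5%, against 29.3% of genes) and 10 lower (27%, against 28.3% of genes). At 2 ribosomes 7 were higher (18.9%, against 28.3% of genes) and 10 lower (27%, against 23.5% of genes). At 3 or more ribosomes 7 were higher (18.9%, against 28.2% of genes) and 12 lower (32.4%, against 26.5% of genes). The DMSO library of each fraction serves both inhibitors, so the counts of the PRMT1 and PRMT4 inhibitors are not separate observations. Of the 37 members, 9 were at 0 in the DMSO library of 1 ribosome and 4 in that of 3 or more, and the part of these zeros in the counts was not tested.

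**Figure D4:**
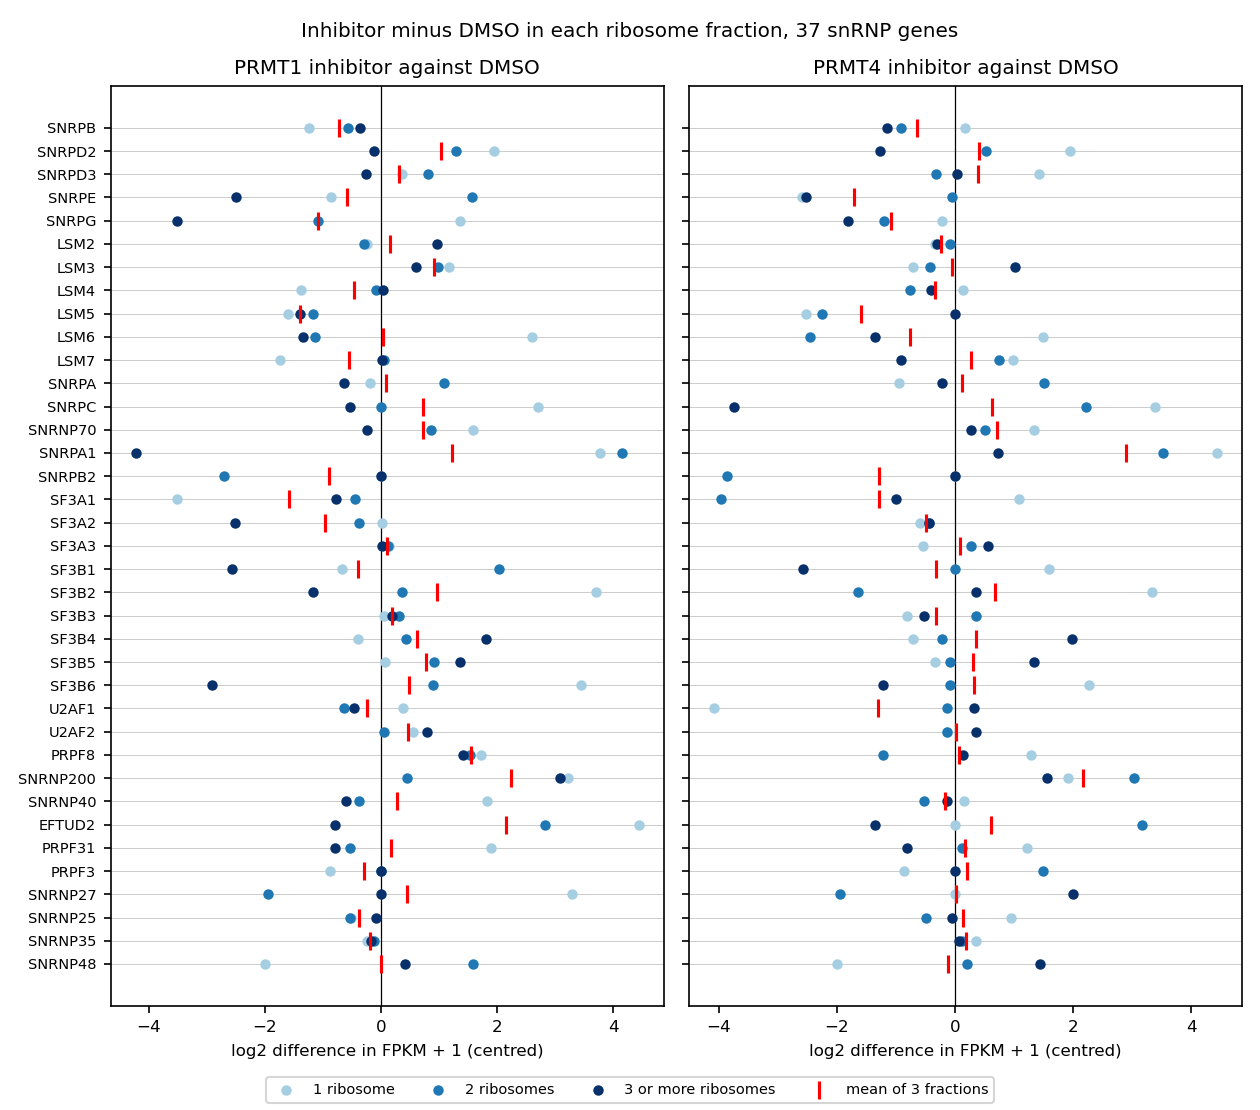
Centred log2 difference in FPKM + 1 between each inhibitor and DMSO for the 37 members, with 1 point per ribosome fraction and a bar at the mean of the 3 fractions. SNRNP200 and PRPF8 have all 3 points to the right of 0 with the PRMT1 inhibitor, where the 4 U5 proteins have a median of 1.85.

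Split by particle, the rings and U5 lay apart with the PRMT1 inhibitor: the median ribosome-bound difference from DMSO was -0.59 for the Sm ring, -0.22 for the LSm ring, 0.19 for U2 and 1.85 for U5. With the PRMT4 inhibitor these medians were -0.64 for the Sm ring, -0.29 for the LSm ring, 0.09 for U2 and 0.34 for U5. In the 1-ribosome fraction all 4 U5 members were at least 1.5-fold higher with the PRMT1 inhibitor than in DMSO (31.2% of genes were). The lists hold 4 to 11 genes with 1 library a group, and the difference between lists was not tested.

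PRPF8 encodes the scaffold of the catalytic core. PRPF8 shares 157 exon bases with an unnamed gene on the opposite strand, which was not analysed here. PRPF8 values were 11.6, 13.1, 9.26 and 13.9 FPKM with the PRMT1 inhibitor, 1.89, 9.29, 0.53 and 5.19 FPKM with the PRMT4 inhibitor and 6.57, 3.25, 2.56 and 4.62 FPKM in DMSO. All 3 of its ribosome fractions were higher with the PRMT1 inhibitor than in DMSO, by 1.72, 1.53 and 1.41 on the log2 scale at 1, 2 and 3 or more ribosomes, while the inputs, at 11.6 FPKM with the PRMT1 inhibitor and 6.57 FPKM in DMSO, differed by 0.06 after centring. EFTUD2 encodes the GTPase that works beside PRPF8. EFTUD2 values were 5.54, 20.7, 8.87 and 14.2 FPKM with the PRMT1 inhibitor, 0.68, 0, 11.6 and 9.32 FPKM with the PRMT4 inhibitor and 5.48, 0, 0.4 and 25.3 FPKM in DMSO. The high values of the PRMT1 inhibitor at 1 and 2 ribosomes stand against DMSO values of 0 and 0.4 FPKM. The opposite-strand partners of EFTUD2 were listed in the same libraries, HIGD1B at a mean of 46.2 FPKM and CCDC103 at 12.8 FPKM. SNRNP200, the helicase that unwinds U4 from U6, was chosen after its values were seen. Its levels were 0, 15.4, 0.71 and 9.73 FPKM with the PRMT1 inhibitor, 9.93, 5.59, 9.15 and 2.72 FPKM with the PRMT4 inhibitor and 0.53, 0.75, 0.25 and 0.27 FPKM in DMSO. All 4 DMSO values were under 1 FPKM, and 6 of the 8 inhibitor values were at or above 2.72 FPKM.

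SF3A1, a subunit of the SF3a complex, was lowest by the mean of 4 libraries with both inhibitors, at -1.34 with the PRMT1 inhibitor and -2.14 with the PRMT4 inhibitor. SF3A1 stood at 23.7, 0, 18 and 14.2 FPKM with the PRMT1 inhibitor, 0.39, 23.1, 0.66 and 12.1 FPKM with the PRMT4 inhibitor and 22.9, 10.4, 24.9 and 25 FPKM in DMSO. The low mean comes from the PRMT1 inhibitor library with 1 ribosome and the PRMT4 inhibitor libraries of input and 2 ribosomes, each under 1 FPKM, while the other 9 libraries held 10.4 to 25 FPKM. Its opposite-strand partner CCDC157, with 218 shared exon bases, was listed at 135, 41.8, 91 and 60.8 FPKM with the PRMT1 inhibitor, 87.2, 60.8, 106 and 70.2 FPKM with the PRMT4 inhibitor and 41.8, 72, 88.5 and 69.2 FPKM in DMSO. CCDC157 was not near 0 in those 3 libraries.

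SF3A2, another SF3a subunit and another gene with a TOP-like start, had a mean difference of -1.14 with the PRMT4 inhibitor. It was listed at 17.1, 8.38, 4.49 and 0 FPKM with the PRMT1 inhibitor, 0, 5.11, 4.21 and 3.23 FPKM with the PRMT4 inhibitor and 4.67, 8.25, 6.13 and 4.74 FPKM in DMSO. Its opposite-strand partner PLEKHJ1 averaged 168 FPKM, against 5.52 FPKM for SF3A2, and lay toward 3 or more ribosomes in all 3 gradients, with a mean gradient position of 1.12 ± 0.48 (SD, n = 3 gradients; limma adjusted p = 0.319). SNRPA1 encodes a protein that binds U2 RNA together with the protein from SNRPB2. It was listed at 0, 12.7, 16.7 and 0 FPKM with the PRMT1 inhibitor, 6.2, 20.5, 10.4 and 30.0 FPKM with the PRMT4 inhibitor and 0, 0, 0 and 17.7 FPKM in DMSO. SNRPA1 was above 0 in all 4 PRMT4 inhibitor libraries, and at 0 in all DMSO libraries but that of 3 or more ribosomes, which gave it the highest mean difference of that inhibitor. SF3B6, a small SF3b subunit near the branch site, was listed at 0, 9.97, 11.4 and 3.06 FPKM with the PRMT1 inhibitor, 13, 3.8, 5.34 and 12 FPKM with the PRMT4 inhibitor and 0, 0, 5.68 and 29.5 FPKM in DMSO. Its highest value was in DMSO with 3 or more ribosomes, although 2 of the other 3 DMSO libraries listed it at 0.

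Of the Sm and LSm genes with a mean of at least 5 FPKM, SNRPG had the lowest mean difference with both inhibitors, at -0.91 with the PRMT1 inhibitor and -1.73 with the PRMT4 inhibitor, and LSM4 came next with the PRMT1 inhibitor at -0.75. LSM5, which averaged 1.89 FPKM, stood at -1.21 with the PRMT1 inhibitor and -1.34 with the PRMT4 inhibitor. For LSM4 the lower values were in the input and 1-ribosome libraries, and at 3 or more ribosomes the PRMT1 inhibitor and DMSO differed by 0.04. SNRPB was lower with the PRMT1 inhibitor in all 3 ribosome fractions, with log2 differences of -1.23, -0.57 and -0.36. SNRNP70, highest of its particle with the PRMT4 inhibitor at 0.58, was above DMSO in all 4 PRMT4 inhibitor libraries, and its mean with the PRMT1 inhibitor was also 0.58.

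The gradient shift is the gradient position with an inhibitor minus that in DMSO. With the PRMT1 inhibitor, 9 members were at least 1.5-fold higher (24.3%, against 33.6% of genes) and 16 were lower (43.2%, against 34.9% of genes), with a median of -0.42. With the PRMT4 inhibitor, 10 were higher (27%, against 35.1% of genes) and 17 were lower (45.9%, against 34.2% of genes), with a median of -0.38. For the 23 members with no exon opposite another gene the medians were -0.11 with the PRMT1 inhibitor and -0.02 with the PRMT4 inhibitor. For the Sm ring the median shifts were -1.60 and -1.41, and the Sm gradient position itself had medians of 0.14 with the PRMT1 inhibitor, 0.28 with the PRMT4 inhibitor and 1.97 in DMSO. Both shifts therefore use the same high DMSO ratio. SNRPD2 and SNRPG were lower by both inhibitors, with shifts of -2.03 and -4.85 for the PRMT1 inhibitor and of -3.24 and -1.61 for the PRMT4 inhibitor. For U2 the medians were -0.08 and -0.02, and for U5 they were -1.33 and -0.77, in the order PRMT1 inhibitor, PRMT4 inhibitor.

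Coding length, the longest annotated for each gene, did not order the members. For LSM4 it was 715 bases, not a whole number of codons, so the length group of LSM4 is uncertain. The 13 members with a coding length of up to 500 bases had a median gradient position of -0.39, the 8 of over 500 and up to 1000 bases 0.70 and the 16 longer ones 0.25, against -0.08, -0.07 and -0.08 for all genes of the same lengths. Across the 37 members Spearman's rho between coding length and gradient position was 0.18 and Pearson's r was -0.02. This is a description across genes that share the same 6 libraries.

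The factors that build snRNPs were followed as a list of 17 measured genes: the SMN complex that loads Sm rings, the PRMT5 methylosome that methylates Sm tails, and other assembly and methyltransferase genes. Of the rest of that list, SMN1, GEMIN6, PHAX, TGS1 and COIL were below the minimum and GEMIN8 was not analysed here. SMN1 and SMN2 had equal values at 1 ribosome, 2.24 FPKM with the PRMT1 inhibitor and 1.21 FPKM with the PRMT4 inhibitor. How reads were shared between these near-identical copies is uncertain, so the level of either is too. In gradient position 0 of the 17 had an adjusted p under 0.05 in limma and 1 an unadjusted one (5.88%), GEMIN7 of the SMN complex, at a mean of -1.92 toward 1 ribosome (adjusted p = 0.265). Without pairing by treatment GEMIN7 was the 1 gene of the list that passed, and it has an exon opposite GEMIN7-AS1. In the PRMT1 inhibitor input 10 of the 17 were at least 1.5-fold higher than in DMSO (58.8%, against 32.6% of genes) and 5 lower (29.4%, against 34.7% of genes), with a median of 1.06, while the snRNP proteins had a median of -0.56 in the same libraries. In the PRMT4 inhibitor input 7 were higher (41.2%, against 35.9% of genes) and 6 lower (35.3%, against 26.2% of genes), with a median of 0.06. Many of the higher genes were listed at 0 FPKM in the DMSO input. They were SMN2, DDX20, WDR77 and SART3 for both inhibitors, GEMIN5 and COPRS for the PRMT1 inhibitor, and GEMIN2 for the PRMT4 inhibitor. Over all genes, 27.1% were at 0 in that library, and the part of these zeros in the counts was not tested. On ribosomes 1 of the 17 was higher (5.88%, against 8.8% of genes) and 3 lower (17.6%, against 7.25% of genes) with the PRMT1 inhibitor. With the PRMT4 inhibitor 2 were higher (11.8%, against 9.23% of genes) and 4 lower (23.5%, against 8.09% of genes). CARM1 itself averaged 116 FPKM and, after centring, differed from DMSO by 0.41 in the PRMT1 inhibitor input and by 0.05 in the PRMT4 inhibitor input. CARM1 and PRMT1 each have an exon opposite another gene, YIPF2 in the case of CARM1. Their values may therefore hold fragments of the opposite gene. PRMT1 averaged 18.1 FPKM. It was at 24.8 FPKM in the PRMT1 inhibitor input, 1.9 FPKM in the PRMT4 inhibitor input and 16.2 FPKM in the DMSO input. After centring these differed from DMSO by -0.10 with the PRMT1 inhibitor, where the sign comes from the centring, and by -3.14 with the PRMT4 inhibitor.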

How the data were processed

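RNA was sequenced from 12 HEK293T libraries, 3 treatments by 4 gradient fractions with 1 library each. TRIzol extraction and a strand-keeping NEBNext Ultra II kit were used, per the labels' protocols. The submitters' processing notes name cutadapt 1.18, STAR 2.5.3a, RSEM and the GRCh37 build. The authors deposited FPKM per gene with 2 decimals. Ribosome columns named R1, R2 and R3 were read as 1, 2 and 3 or more ribosomes; the column names alone do not exclude replicate numbers.

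Values were taken as log2(FPKM + 1), for genes with a mean of at least 1 FPKM, and each difference was centred on its median over those genes. Fractions were compared over the 3 gradients with limma 3.58.1 in R 4.3.3 (trend, two-sided, Benjamini-Hochberg over all genes); nothing says the 3 gradients were separate cultures beyond their treatments, and p-values measure the spread between them. Inhibitors were compared with DMSO without a test, at 1.5-fold. Fragments were estimated from FPKM steps with an effective length 150 bases below the transcript length. Among genes with a single annotated transcript, 92.1 to 96.1% of low values lay within 0.1 of a whole number. The step and the 150 bases were chosen for the best fit to those same values. For members, the transcript with the longest coding sequence gave the length, which need not be the length behind the FPKM. GENCODE release 29 on GRCh38 gave names, lengths, pseudogene names and opposite-strand exons.

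The members and gene lists were chosen with earlier results of these data known. All 12 values are given for the Sm proteins, LSM4 and, per inhibitor, the 3 highest and 3 lowest members by mean difference over 4 libraries among those with a mean of at least 5 FPKM. The fit was tested on simulated data.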

Additional observations from a re-analysis of the deposited data

Results flagged for a closer look

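After centring, SNRNP35, the U11/U12 protein, was lower than in DMSO in all 4 PRMT1 inhibitor libraries, by a mean of -0.24 (log2). It was higher in all 4 PRMT4 inhibitor libraries, by a mean of 0.31. In the inputs it was listed at 63.1 FPKM with the PRMT1 inhibitor and 52.4 FPKM in DMSO. The lower value of that input thus comes from the centring, which took 0.68 from the pair. The PRMT1 inhibitor minus PRMT4 inhibitor difference was -0.55. Both means use the same DMSO libraries, and the difference was not tested.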

How the results depend on the processing

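Of 208 alternatives computed over 26 counts and medians, 161 stayed within tolerance, 47 moved beyond it and 0 turned a called value round. Tolerance was 1.5 times for a count and, for a median, the spread between gradients or fractions or else 0.1. A median that changed sign was not counted as turned round. That of gradient position, from 0.20 to -0.36 without the DMSO gradient, was counted as moved. Where a value moved, the cause was not tested except that leaving samples out makes a rule on all fractions easier to meet. No paired analysis by replicate number was possible because the labels carry none; treatment was the block, and without this block (no replicate block) 1 member in place of 0 had an adjusted p under 0.05 in gradient position, and 509 genes in place of 0. Deviations of paired libraries correlated at -0.01 to 0.05 over the 3 treatments for gradient position and at 0.02 to 0.12 for polysome association. Leaving out 1 gradient gave 3 to 6 members lower in all gradients for gradient position (2 with all 3), a median of -0.36 to 0.30 (0.20), and for polysome association 8 to 9 higher (5) and 3 to 6 lower (3). Leaving out 1 ribosome fraction gave, for ribosome-bound RNA, 5 to 10 higher (4), 5 to 6 lower (3) and a median of -0.04 to 0.36 (0.15) with the PRMT1 inhibitor, and 3 to 7 higher (3), 4 to 8 lower (3) and a median of -0.19 to 0.03 (0.07) with the PRMT4 inhibitor. With a minimum of 5 FPKM the medians were 0.48 for gradient position, -0.78 for each inhibitor's input and -1.10 for the PRMT4 inhibitor gradient shift. Of the 27 members at that minimum, 5 were higher in the PRMT1 inhibitor input and 4 in the PRMT4 inhibitor input. On ribosomes with the PRMT1 inhibitor 2 were higher, and in the PRMT4 inhibitor gradient shift 5. With no minimum, 1 of the 42 listed genes was lower in polysome association and 8 in the PRMT1 inhibitor input. The input medians were then -0.13 and -0.16 for the PRMT1 and PRMT4 inhibitors. Without centring, 1 member was lower in polysome association and 5 in the PRMT1 inhibitor input, and the input medians were 0.11 and 0. Upper-quartile scaling gave 1 member lower in polysome association and input medians of 0 and 0. A pseudocount of 0.25 gave input medians of -0.69 and -0.71, and 22 members lower in the PRMT4 inhibitor input. Of the 23 members without an opposite-strand exon, 11 were lower in the PRMT1 inhibitor input and 2 were higher on ribosomes with it. With the PRMT4 inhibitor, 3 of the 23 were lower in the input and 8 in the gradient shift. Their medians were -0.11 and -0.02 for the gradient shifts and -0.18 on ribosomes with the PRMT4 inhibitor. Counts over 23 or 27 members come from shorter lists than counts over 37, and the tolerance was not scaled to list length. Leaving out genes at 0 in both libraries of a pair was chosen after seeing the data. Depth limits most values: 27 of the 37 members had under 10 estimated fragments in the typical library.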
